A study of Mus musculus with 16 samples.

Results

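Genes that mark bile duct cells and the ductular reaction were followed through the livers of 16 mice: Krt7, Krt19, Krt23, Epcam, Cd24a, Prom1, Sox9 and Cftr. They were chosen by name and make up 8 of the 25719 genes measured. RNA of whole liver came from C57BL6J wild type (WT) mice and from Klrk1-/- mice, in which the gene for the activating receptor NKG2D is knocked out. The mice ate either a normal chow diet (NCD) or a steatosis-steatohepatitis diet (SSD) that is rich in fat, fructose and cholesterol. There were 4 WT and 4 Klrk1-/- mice on NCD, and 5 WT and 3 Klrk1-/- mice on SSD, which was given for 3 weeks. By the study's methods the mice were male and 8 to 12 weeks old, and each mouse gave 1 library. P-values therefore measure the spread between mice.

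Bile ducts are lined by cholangiocytes, epithelial cells that modify bile with ion channels and water channels and that carry keratins which hepatocytes lack. In many chronic liver injuries, small irregular ductules with these markers appear around the portal tracts, which is known as the ductular reaction. Cholangiocytes are a small minority of liver cells, so their transcripts are scarce in RNA of the whole organ. Keratin 7 and keratin 19 are intermediate filament proteins of ductal epithelium and keratin 23 is a type I keratin. Epcam, CD24 and prominin 1 are surface proteins of ductal and progenitor cells, SOX9 is a transcription factor of bile duct development, and CFTR is the apical chloride channel of cholangiocytes.

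Each library held 19892025 to 28936707 reads on genes. Values are normalized counts, that is the reads of a gene divided by 1 factor per mouse, and 1 read was worth 0.664 to 1.303 normalized counts. Klrk1 lay between 0.966 and 8.71 normalized counts in the 7 Klrk1-/- mice and between 20.1 and 71.1 in the 9 WT mice, so that each mouse stood on the side of its label. NCD-fed Klrk1-/- mice 2 and 3 nevertheless stood apart from the other Klrk1-/- mice. Their Rilpl1, a gene named here after its values were seen, was at 100.8 and 47.3 normalized counts, against 590.5 to 950.3 in the other 5 Klrk1-/- mice and 45.6 to 101.0 in WT mice. Calls that rest on these mice are given with and without them for the members and for the ductal, transcription factor, Notch, YAP and progenitor genes.

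The bases ahead of the transcription start are shown for Krt23 and Epcam. Krt23 differed between diets in both genotypes, and Epcam did so in Klrk1-/- mice. Both stretches are the 250 bases before the RefSeq start of the gene, 5′ to 3′ on the strand of the gene, and their GRCm39 positions come from an exact match to that genome. Krt23 lies on the minus strand, at chr11:99383947-99384196. Capitals mark matches to the letters TTGCNNAA, known from C/EBP factors, and ACAATG, known from SOX factors, which overlap here. Epcam lies on the plus strand, at chr17:87943157-87943406, and has no capitals.
Krt23: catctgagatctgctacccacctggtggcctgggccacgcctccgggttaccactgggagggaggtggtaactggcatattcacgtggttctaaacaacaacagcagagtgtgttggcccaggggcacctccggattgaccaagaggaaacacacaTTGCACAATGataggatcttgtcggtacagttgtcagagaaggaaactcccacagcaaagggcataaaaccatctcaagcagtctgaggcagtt
Epcam: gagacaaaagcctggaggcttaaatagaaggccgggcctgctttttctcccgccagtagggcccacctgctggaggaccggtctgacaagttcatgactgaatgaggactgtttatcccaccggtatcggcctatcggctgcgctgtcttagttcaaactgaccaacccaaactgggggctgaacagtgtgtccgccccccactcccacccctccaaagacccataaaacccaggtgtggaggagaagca
On either strand TTGCNNAA was found in 9.56% and ACAATG in 10.7% of the 32851 RefSeq windows of this length. The letters TATAAA of the TATA box were searched in the same way and stood in 12.4% of windows. For TEAD factors the letters GGAATG were used, which stood in 12.6% of windows. For RBPJ, the factor through which Notch acts, they were TGGGAA, in 21.6% of windows. For HNF1 factors they were GTTAAT, in 6.43% of windows. Neither printed stretch held any of these other letters. These matches describe the letters only. RefSeq windows were at hand for 5 of the 8 members. Beyond Krt23, the only match was that of RBPJ, on the minus strand of a Prom1 window. Krt23 (99368800 to 99383963) and Krt19 (100031636 to 100039491) lie on chromosome 11 among the type I keratins, and Sox9 lies on the same chromosome at 112673050 to 112678586.

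All 8 genes were scarce, but 7 had reads in every mouse, and Cftr had reads in 12 of the 16. In the 16 mice, the members together reached 260.8 to 907.4 normalized counts, whereas 12 hepatocyte markers together reached 1671000 to 3033500. Per kilobase of gene length, the mean level over all mice was highest for Krt19, at 50.6 ± 20.53 normalized counts (SD, n = 16). Cd24a followed at 49.1 ± 26.3, Krt23 at 39.9 ± 51.0, Sox9 at 38.8 ± 7.60 and Epcam at 38.2 ± 20.6. Their spreads overlapped, so these 5 genes could not be ranked. Krt7 (13.8 ± 5.30) and Prom1 (11.2 ± 4.34) were lower, and Cftr was at 0.721 ± 0.641. Of 53 keratin genes listed, 33 were without a read in all 16 mice. Krt8 and Krt18, the keratins that hepatocytes share with bile ducts, averaged 3679 and 4340 normalized counts per kilobase. Reads behind a value ranged from 106 to 314 for Sox9 but from 8 to 53 for Prom1 and from 11 to 54 for Krt7, so counting error alone is large for the latter pair. In NCD-fed Klrk1-/- mice, for example, Prom1 varied by 26.05% between mice where counting error alone gives 29.8%. In NCD-fed WT mice it varied by 8.07% where counting error alone gives 19.5%, so the spread of these WT values understates the counting error.

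**Figure D1:**
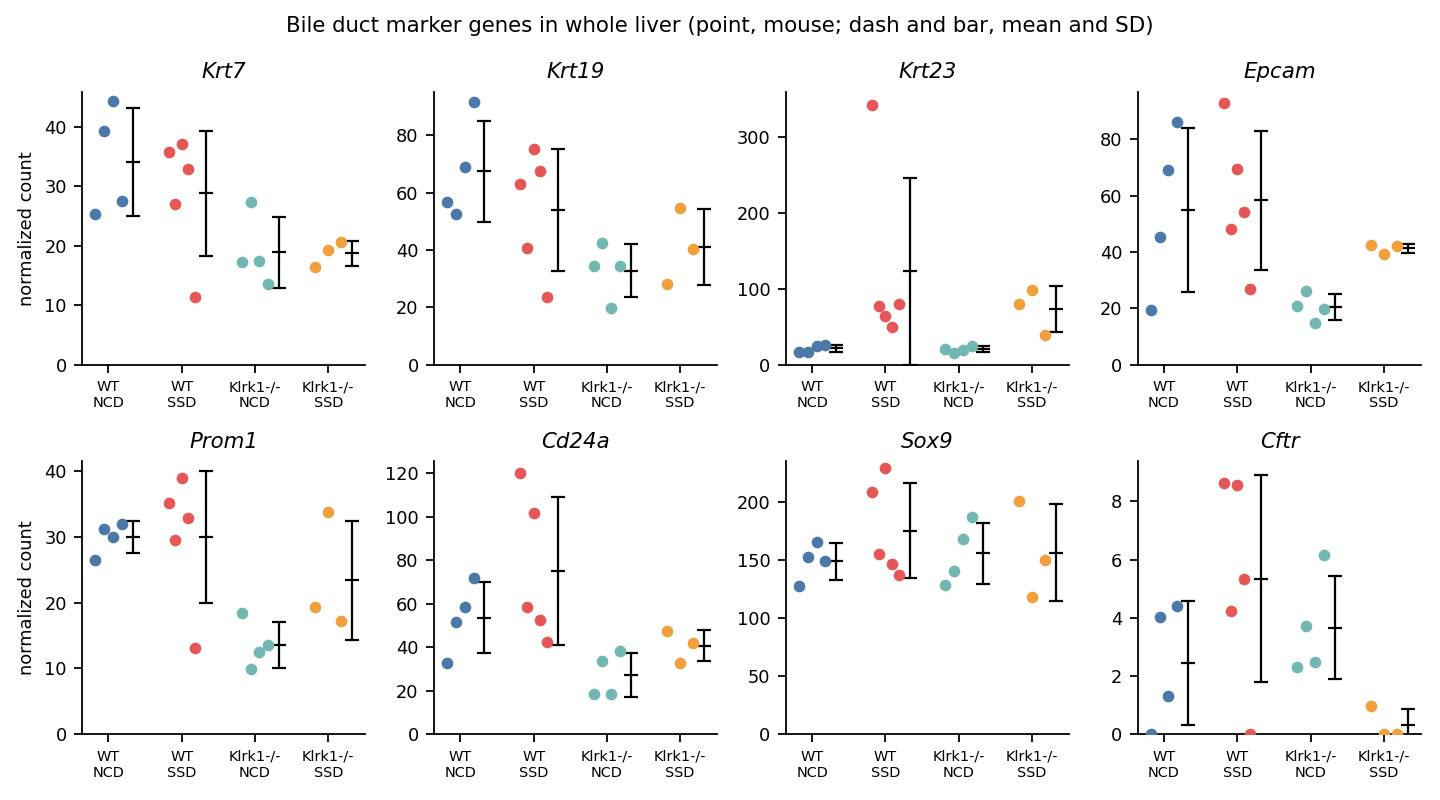
Normalized counts (vertical axes, linear from 0) of the 8 genes in the 4 groups; each point is a mouse, and the dash with its bar is the mean and SD, cut at 0 where the SD exceeds the mean. Krt23 is higher in every SSD-fed mouse than in every NCD-fed mouse, whereas Krt19 and Prom1 are lower in every NCD-fed Klrk1-/- mouse than in every NCD-fed WT mouse. Such separation was seen in 29.0%, 37.6% and 19.3% of all genes for the diets in WT, the diets in Klrk1-/- mice and the genotypes on NCD.

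Which of these genes differed was tested with limma on log2(normalized count + 1) over all genes with a mean of at least 10, with Benjamini-Hochberg adjustment. Calls needed both an adjusted p under 0.05 and a change beyond 2-fold. Cftr was below this mean in every comparison, so 7 members were tested. For the diets in WT mice, 1 of the 7 members was called (Krt23, higher on SSD), and 9.01% of all genes tested were called. For the diets in Klrk1-/- mice, 2 members were called (Krt23 and Epcam, both higher on SSD), against 5.46% of all genes. Between Klrk1-/- and WT mice on NCD, 2 members were called (Krt19 and Prom1, both lower in Klrk1-/-), against 1.70% of all genes. Without Klrk1-/- mouse 3 the share of all genes was 1.03%, and without Klrk1-/- mice 2 and 3 it was 0.780%. On SSD, 0 members were called between the genotypes by limma, edgeR or DESeq2, against 1.15% of all genes by limma, and 1 (Cd24a) had an unadjusted p under 0.05. This share was 2.78% by DESeq2 and moved from 0.266% without Klrk1-/- mouse 1 to 1.91% without WT mouse 5. Without a fold limit, an adjusted p under 0.05 was reached by 34.9% of all genes between diets in WT mice and by 29.4% in Klrk1-/- mice. Between genotypes this share was 13.1% on NCD and 2.90% on SSD, and Cd24a on NCD was the only member to be added. The median log2 fold change of the 7 members was 0.17 for the diets in WT mice, 0.62 for the diets in Klrk1-/- mice, -0.97 for the genotypes on NCD and -0.38 on SSD, where the medians of all genes were -0.0015, -0.0020, 0.0018 and -0.0010. Groups that did not overlap were common, at 29.0% of all genes tested for the diets in WT mice (1 of the 8 members), 37.6% in Klrk1-/- mice (3 members), 19.3% between genotypes on NCD (2 members) and 17.9% on SSD (0 members). Comparisons of 1 group with 2 others share its mice, so they are not independent of each other. Whether the effect of diet differed between genotypes was tested in a model of all 16 mice. There 0 members were called by limma, edgeR or DESeq2 and 0 had an unadjusted p under 0.05 by limma, against 0.536% of all genes called and 0.880% without a fold limit.

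**Figure D2:**
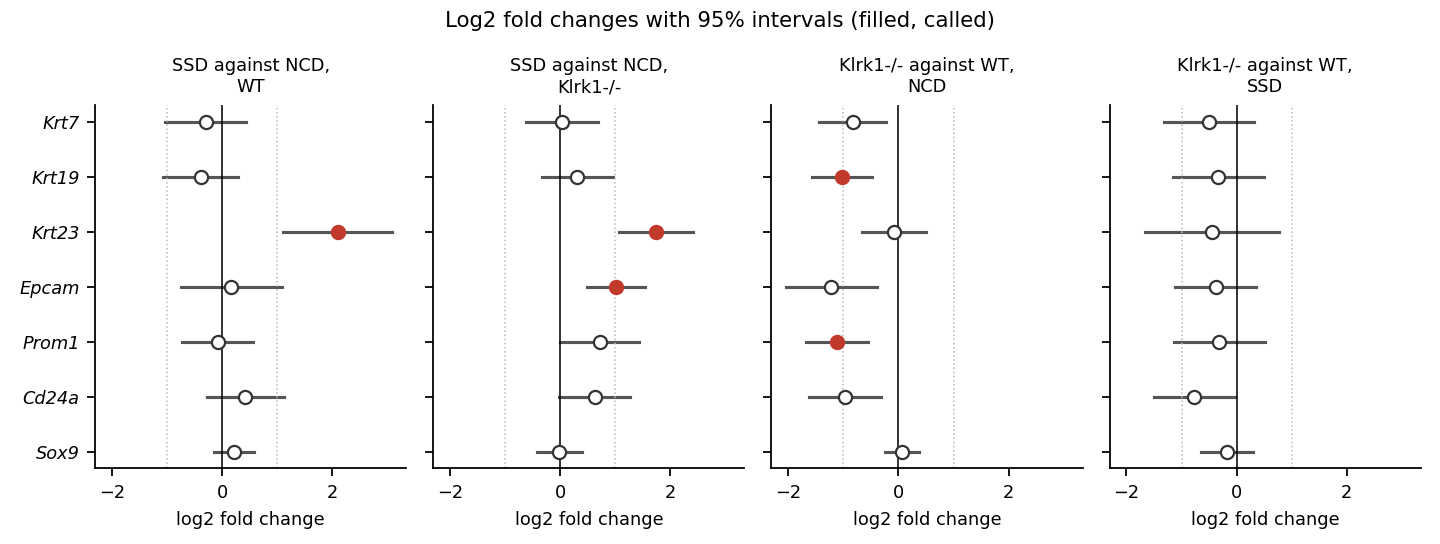
Log2 fold changes of the 7 tested genes (horizontal axis) in the 4 comparisons with 95% intervals from limma; filled points were called and dotted lines mark a 2-fold change. Krt23 stands at 2.10 and 1.73 for the diets, and Krt19 and Prom1 stand at -1.03 and -1.11 for the genotypes on NCD.

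Krt23 rose on SSD in both genotypes. In WT mice on NCD it was at 16.9, 17.1, 24.8 and 26.5 normalized counts, and on SSD at 342.8, 76.9, 64.7, 49.7 and 80.0. The Klrk1-/- mice had 20.7, 14.9, 19.9 and 24.6 on NCD and 80.2, 98.8 and 39.4 on SSD. The lowest SSD-fed mouse of either genotype thus lay above the highest NCD-fed mouse, and SSD-fed WT mouse 1 lay far above all others. The fitted rise was 4.28-fold in WT mice (log2 fold change 2.10, standard error 0.45, adjusted p = 0.00446). It was 3.32-fold in Klrk1-/- mice (log2 fold change 1.73, standard error 0.31, adjusted p = 0.00157). Without WT mouse 1 the log2 fold change was 1.63 (adjusted p = 0.000231, range over all alternatives 0.000231 to 0.0183). Without NCD-fed Klrk1-/- mice 2 and 3 it was 1.55 in Klrk1-/- mice (adjusted p = 0.0103, range 1.45e-06 to 0.0134). Exact two-sided permutation of the mice gave 0.0159 in WT and 0.0571 in Klrk1-/- mice, in each case the smallest p that the group sizes allow. The rise did not differ detectably between genotypes, with an interaction of -0.37 on the log2 scale (95% interval -1.69 to 0.96, adjusted p = 0.789). Between genotypes Krt23 differed by -0.44 on SSD (95% interval -1.67 to 0.78, adjusted p = 0.666) and by -0.08 on NCD (adjusted p = 0.870). In whole liver, more cells with a transcript and more transcript per cell cannot be told apart.

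SSD-fed WT mouse 1, with the most Krt23, also had the highest sums of stellate cell and macrophage markers in its group. The 8 stellate cell markers reached 19402 normalized counts in this mouse and 3344 to 7053 in the other 4. The 8 monocyte and macrophage markers reached 8735, against 2988 to 5027, and 30 other ductal genes reached 43271, against 26545 to 31062. Mouse 5 had the lowest of these sums (3344, 2988 and 26545) and the second highest Krt23 of the group, at 80.0. The part of these cells in the level of Krt23 was not tested.

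The other duct keratins did not follow Krt23. Krt19, the most widely used keratin marker of bile ducts, was at 56.7, 52.4, 69.1 and 91.6 normalized counts in NCD-fed WT mice and at 63.1, 40.6, 75.2, 67.5 and 23.7 on SSD. The diets overlapped, with a log2 fold change of -0.39 (95% interval -1.08 to 0.29, adjusted p = 0.357). Krt19 in Klrk1-/- mice was at 34.5, 42.3, 19.9 and 34.4 on NCD and at 28.0, 54.6 and 40.3 on SSD, where the diets again overlapped (log2 fold change 0.31, adjusted p = 0.458). On NCD every Klrk1-/- mouse lay below every WT mouse. Krt19 was 2.05-fold lower in Klrk1-/- than in WT mice on NCD (log2 fold change -1.03, standard error 0.25, adjusted p = 0.0214), and the exact permutation p was 0.0286, the smallest that 4 mice against 4 allow. On SSD the genotypes overlapped (log2 fold change -0.33, adjusted p = 0.630, and -0.59 to -0.088 with single mice left out). The call on NCD was lost with a pseudocount of 10 (-0.86, adjusted p = 0.0194), without WT mouse 5 (-0.88, adjusted p = 0.0391) and without Klrk1-/- mouse 3 (-0.82, adjusted p = 0.0526). Without Klrk1-/- mice 2 and 3 the value was -0.92 (adjusted p = 0.114, range over all alternatives 0.00348 to 0.114).

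The ratio of Krt23 to Krt19 within a library does not depend on how libraries are scaled. It was 0.289 to 0.358 in NCD-fed WT mice and 0.737 to 5.43 on SSD. For Klrk1-/- mice it ran from 0.353 to equality on NCD and from 0.979 to 2.86 on SSD. The diets did not overlap in WT mice and overlapped narrowly in Klrk1-/- mice, where NCD-fed mouse 3 had equal reads of both genes.

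**Figure D3:**
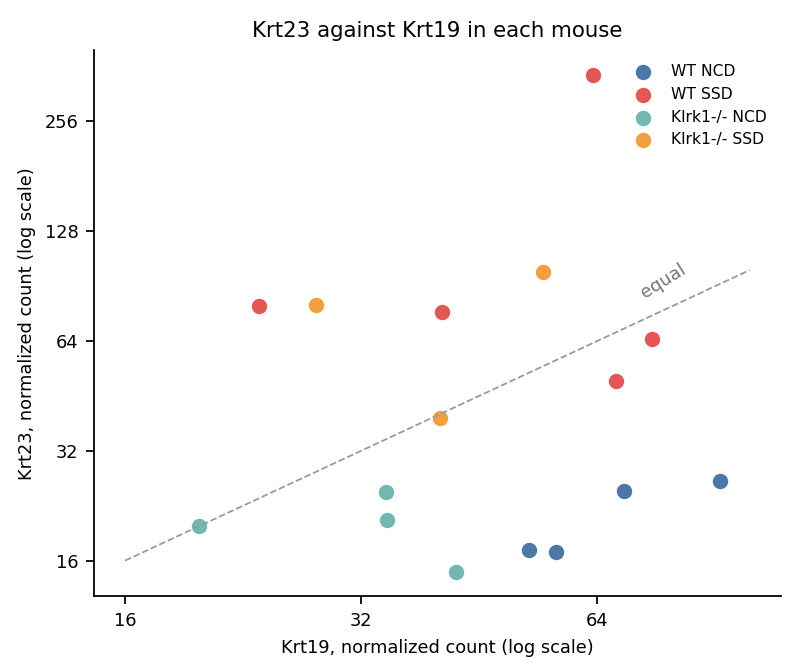
Krt23 (vertical axis) against Krt19 (horizontal axis) in each of the 16 mice, in normalized counts on log scales, with the dashed line where both are equal. SSD-fed mice lie higher than NCD-fed mice at similar Krt19, with 1 WT mouse at 342.8, and NCD-fed Klrk1-/- mice lie to the left of NCD-fed WT mice.

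Krt7, a partner keratin of the ducts, was at 25.3, 39.3, 44.3 and 27.6 normalized counts in NCD-fed WT mice and at 17.2, 27.4, 17.4 and 13.5 in NCD-fed Klrk1-/- mice. Klrk1-/- mice 1, 3 and 4 lay below all WT mice and mouse 2 lay among them. The log2 fold change was -0.83 (95% interval -1.43 to -0.22), and it missed the threshold (adjusted p = 0.0677, exact permutation p = 0.0571). On SSD Krt7 was at 35.9, 27.0, 37.1, 32.9 and 11.4 in WT mice and at 16.4, 19.3 and 20.6 in Klrk1-/- mice, which lay within the WT range (adjusted p = 0.452). Between diets the log2 fold change was -0.30 in WT mice (95% interval -1.04 to 0.44) and 0.03 in Klrk1-/- mice (95% interval -0.62 to 0.68). Neither passed the test. With libraries scaled to equal totals the value in WT mice turned to 0.033, and with quantile normalization that in Klrk1-/- mice turned to -0.020.

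The genes of surface proteins had their lowest means in NCD-fed Klrk1-/- mice. Epcam, the epithelial cell adhesion molecule, was at 20.7, 26.1, 14.9 and 19.7 normalized counts in this group and at 42.5, 39.4 and 42.0 in SSD-fed Klrk1-/- mice, without overlap. It rose 2.01-fold on SSD in Klrk1-/- mice (log2 fold change 1.01, standard error 0.24, adjusted p = 0.00889, exact permutation p = 0.0571). In WT mice Epcam was at 19.3, 45.3, 69.1 and 86.1 on NCD and at 93.0, 48.2, 69.5, 54.2 and 26.9 on SSD. These ranges overlapped almost wholly, with a log2 fold change of 0.17 (95% interval -0.75 to 1.09, adjusted p = 0.786). The difference between the 2 diet effects was 0.84 on the log2 scale (95% interval -0.32 to 2.01, adjusted p = 0.445), so it was not detectable. On NCD Epcam was lower in Klrk1-/- than in WT mice by a log2 fold change of -1.22, which missed the threshold (standard error 0.38, adjusted p = 0.0523). WT mouse 1 lay among the Klrk1-/- mice. Without that mouse the value was -1.65 (adjusted p = 0.00673, range over all alternatives 0.00423 to 0.253), and it was -1.21 without Klrk1-/- mice 2 and 3 (adjusted p = 0.253).

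The rise of Epcam in Klrk1-/- mice sat at the fold limit. The call was lost with a pseudocount of 10 (0.77, adjusted p = 0.00659), with quantile normalization (0.95, adjusted p = 0.0128) and with all groups in 1 model (1.01, adjusted p = 0.0877). It fell under 2-fold without NCD-fed mouse 3 (0.88), without SSD-fed mouse 1 (0.99), without SSD-fed mouse 3 (0.998) and without NCD-fed mice 2 and 3 (0.997), with an adjusted p of 0.0157 to 0.0408 in these 4 settings and of 0.00205 to 0.0877 over all alternatives.

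Prom1, which encodes the membrane protein prominin 1 (CD133), was at 26.5, 31.2, 30.0 and 32.001 normalized counts in NCD-fed WT mice and at 18.4, 9.95, 12.4 and 13.5 in NCD-fed Klrk1-/- mice. The genotypes did not overlap, and the WT values spread less than counting error alone gives. Prom1 was 2.16-fold lower in Klrk1-/- mice on NCD (log2 fold change -1.11, standard error 0.26, adjusted p = 0.0177, exact permutation p = 0.0286). On SSD it was at 35.2, 29.6, 39.0, 32.9 and 13.1 in WT mice and at 19.3, 33.7 and 17.1 in Klrk1-/- mice. These overlapped (log2 fold change -0.32, adjusted p = 0.643, and -0.60 to -0.13 with single mice left out). Between diets its log2 fold change was -0.08 in WT mice (adjusted p = 0.851) and 0.71 in Klrk1-/- mice (95% interval -0.01 to 1.44, adjusted p = 0.126). The call on NCD was lost with a pseudocount of 10 (-0.77, adjusted p = 0.0157), without Klrk1-/- mouse 2, where the change was under 2-fold (-0.99, adjusted p = 0.0495), and without Klrk1-/- mice 2 and 3 (-0.88, adjusted p = 0.200, range over all alternatives 0.0129 to 0.200).

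Cd24a encodes CD24, a glycosylated surface protein of immature and ductal epithelium that some blood cells also carry. It was at 32.6, 51.3, 58.7 and 71.7 normalized counts in NCD-fed WT mice and at 18.4, 33.6, 18.7 and 38.1 in NCD-fed Klrk1-/- mice. The ranges overlapped at WT mouse 1. The log2 fold change of -0.97 (standard error 0.30) passed the adjusted p (0.0495, range over all alternatives 0.0198 to 0.246) but not the fold limit. On SSD Cd24a was at 120.2, 58.3, 101.8, 52.4 and 42.5 in WT mice and at 47.3, 32.9 and 42.0 in Klrk1-/- mice. This was the largest genotype difference on SSD among the 7 members tested, which do not include Cftr (log2 fold change -0.77, 95% interval -1.50 to -0.03), but its adjusted p was 0.204 and its exact permutation p was 0.0714. Between diets the log2 fold change was 0.42 in WT mice (adjusted p = 0.331) and 0.62 in Klrk1-/- mice (adjusted p = 0.133).

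Sox9 and Cftr showed other patterns. Over all 16 mice pooled Sox9 varied least for its level. It was at 127.8, 153.0, 165.5 and 149.0 normalized counts in NCD-fed WT mice and 208.6, 155.5, 229.4, 146.6 and 137.2 on SSD. The Klrk1-/- mice had 128.7, 140.6, 167.9 and 187.0 on NCD and 200.9, 118.1 and 150.0 on SSD. All 4 groups overlapped. For the diets the log2 fold change was 0.21 in WT mice (95% interval -0.15 to 0.57) and -0.02 in Klrk1-/- mice (95% interval -0.42 to 0.39). Between genotypes it was 0.06 on NCD (95% interval -0.25 to 0.37) and -0.17 on SSD (95% interval -0.64 to 0.30), and adjusted p-values in the 4 comparisons were 0.342 to 0.956. These intervals leave out a change of 2-fold. With libraries scaled to equal totals the value for the diets in WT mice was 0.56 (adjusted p = 0.0225), also under 2-fold.

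Cftr had 0 to 13 reads per mouse. It was at 0, 4.03, 1.304 and 4.41 normalized counts in NCD-fed WT mice and at 8.64, 4.22, 8.57, 5.33 and 0 on SSD. Klrk1-/- mice had values of 2.30, 3.73, 2.49 and 6.15 on NCD and of 0.966, 0 and 0 on SSD. At most 3 reads were seen in 2 of 4, 1 of 5, 3 of 4 and 3 of 3 mice of these groups, in this order. The SSD-fed Klrk1-/- mice lay below all NCD-fed Klrk1-/- mice, with an exact permutation p of 0.0571, the smallest possible, among 32 such tests of the members. In the GENCODE annotation, exons of 6 members share 77 to 869 bases with a gene on the opposite strand: Krt7, Krt19, Sox9, Cftr, Cd24a and Prom1. How strand was handled in the counting was not given, so reads of these pairs cannot be told apart. Krt23 and Epcam share no exon bases with another gene there.

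Within a group, Krt7, Krt19, Epcam, Cd24a and Prom1 lay on the same side of their means in 6 of the 16 mice and on both sides in the other 10. Over the 16 deviations from the group means, Pearson's r between these 5 genes was 0.27 to 0.81 with a median of 0.60 over 10 pairs, lowest for Cd24a and Prom1. These are descriptions, since all values of a mouse share its library, depth and scaling. In SSD-fed WT mouse 5 all 5 genes lay 0.69 to 1.16 below their group mean on the log2 scale. This mouse weighs on the r between the 5 genes, and r without it was not computed. In NCD-fed WT mouse 1 all 5 lay 0.16 to 1.27 below. All 5 also lay below in NCD-fed Klrk1-/- mouse 3, and all 5 lay above in NCD-fed WT mouse 3 and SSD-fed WT mice 1 and 3. Krt23 had a median r of 0.30 with these genes, lowest with Krt7 (0.03). SSD-fed WT mouse 1, at 1.87 above its group mean, weighs on these r of Krt23 and on the group mean. Sox9 had a median r of 0.31 with the 5 genes and its highest with Cd24a (0.75).

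**Figure D4:**
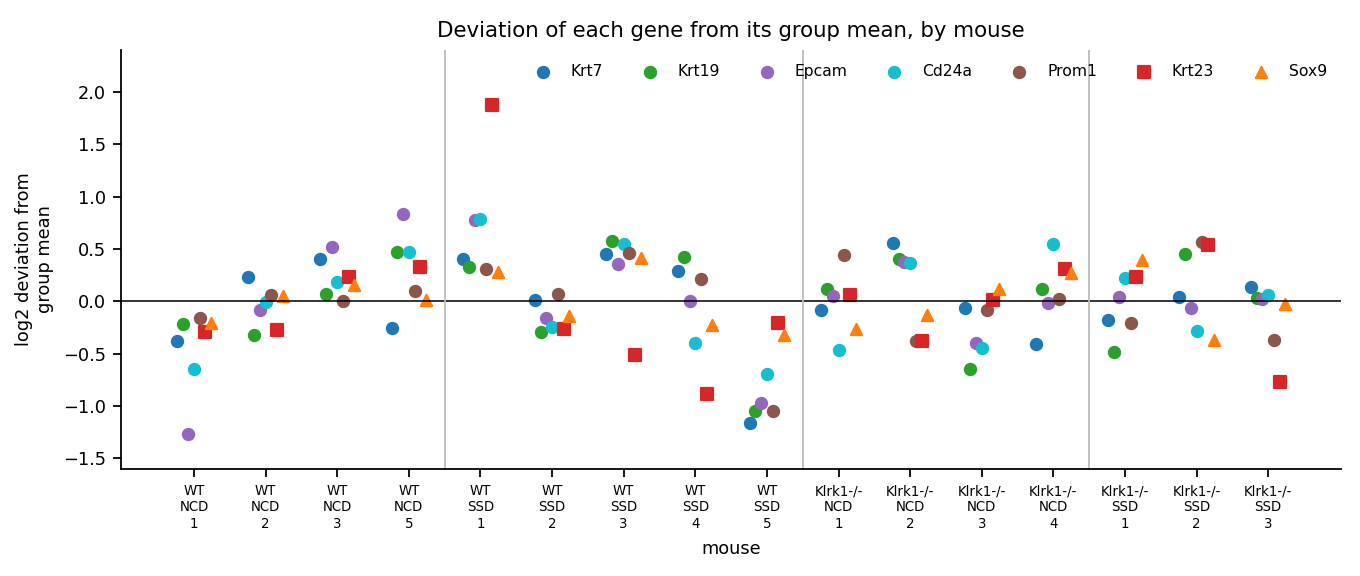
Deviation of 7 genes from their group mean (vertical axis, log2) in each of the 16 mice (horizontal axis), with Krt23 as squares, Sox9 as triangles and the other 5 as circles. The circles lie together below 0 in SSD-fed WT mouse 5, at -1.16 to -0.69, and Krt23 in SSD-fed WT mouse 1 lies at 1.87.

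Genes whose levels over the 16 mice were most like those of a member were found by Pearson's r of the log2 values, across all group differences. For Krt23 these were Tm4sf4 (0.95), Srxn1 (0.94) and S1pr2 (0.94). Cd24a was most like Slco3a1 (0.96), Bicc1 (0.92) and Zfp462 (0.90), and Epcam was most like Scara3 (0.93), Lamc3 (0.92) and Bicc1 (0.91). Krt19 was most like Itgbl1 (0.87), Gm42793 (0.85) and Gsn (0.85), and Prom1 was most like Ehf (0.87), Gm42793 (0.84) and Ezr (0.83). Krt7 was most like Nbl1 (0.87), Dph2 (0.84) and Prdm16 (0.80), and Sox9 had the weakest partners with Rgmb (0.78), Siglecg (0.77) and Itga6 (0.74). These r were picked as the highest among all genes with a mean of at least 10, so they overstate likeness. Epcam and Cd24a had Bicc1 in common and Krt19 and Prom1 had Gm42793, and Krt7, Krt23 and Sox9 had no partner in common with another member.

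Other genes of ductal epithelium were taken from a list of 30, including tight junction, mucin, transporter and cilium genes. Between diets in WT mice, 1 of the 25 tested was called (Ddr1, higher), against 9.01% of all genes, and 4 were higher and 5 lower at an adjusted p under 0.05, which 34.9% of all genes reached. Their median log2 fold change was 0.17, against -0.0015 for all genes. In the Klrk1-/- genotype 2 of 24 were called, both higher on SSD, against 5.46% of all genes, and 4 were higher and 6 lower at an adjusted p under 0.05, against 29.4% of all genes (median 0.05, all genes -0.0020). Among those lower on SSD in both genotypes were Cdh1, the gene of E-cadherin (log2 fold changes -0.74 and -0.65), and the tight junction gene Cldn3 (-0.42 and -0.39). Ddr1, a receptor tyrosine kinase that binds collagen, rose from 66.8 ± 19.4 to 159.8 ± 69.2 normalized counts in WT mice (SD, n = 4 and 5). It also rose in Klrk1-/- mice, from 37.0 ± 10.1 to 81.7 ± 10.2 (SD, n = 4 and 3). Without SSD-fed WT mouse 1 the rise in WT mice was just under 2-fold (log2 fold change 0.98, adjusted p = 0.00613). Without NCD-fed Klrk1-/- mice 2 and 3 the log2 fold change in Klrk1-/- mice was 1.19 (adjusted p = 0.00340). The tetraspanin gene Tspan8 rose in Klrk1-/- mice from 12.4 ± 2.98 to 29.1 ± 7.85 (log2 fold change 1.16, adjusted p = 0.0156). This call was lost without SSD-fed mouse 2 (0.97, adjusted p = 0.0705), without SSD-fed mouse 3 (1.14, adjusted p = 0.0582) and without NCD-fed mice 2 and 3 (0.95, adjusted p = 0.0706).

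On NCD, 2 of 25 of these ductal genes were called between the genotypes, both lower in Klrk1-/- mice, against 1.70% of all genes, and 6 were lower and 0 higher at an adjusted p under 0.05, against 13.1% of all genes (median -0.25, all genes 0.0018). On SSD 1 of 25 was called, again lower, against 1.15% of all genes (median -0.35, all genes -0.0010). Slc10a2, the apical sodium-dependent bile acid transporter of cholangiocytes and ileum, was called on both diets. It was at 1007, 853.8, 980.2 and 755.9 normalized counts in NCD-fed WT mice and at 525.0, 401.9, 319.6 and 479.7 in NCD-fed Klrk1-/- mice. On SSD it was at 770.6, 511.98, 679.5, 490.4 and 610.7 in WT mice and at 212.5, 213.6 and 236.6 in Klrk1-/- mice. The genotypes did not overlap on either diet. Its log2 fold change was -1.07 on NCD (standard error 0.15, adjusted p = 0.00108) and -1.45 on SSD (standard error 0.15, adjusted p = 0.00128). On NCD it was under 2-fold without Klrk1-/- mouse 3 (-0.94, adjusted p = 0.00174) and without mice 2 and 3 (-0.83, adjusted p = 0.0124). Bicc1, an RNA-binding protein gene linked to cystic ducts, was called on NCD, at 91.3 ± 34.02 normalized counts in WT and 43.0 ± 9.85 in Klrk1-/- mice (SD, n = 4 each, log2 fold change -1.002, adjusted p = 0.0344). Leaving out any 1 of WT mice 2, 3 and 5 or Klrk1-/- mice 1, 3 and 4 ended this call (log2 fold changes -0.85 to -1.01, adjusted p = 0.0587 to 0.101), as did leaving out Klrk1-/- mice 2 and 3 (-1.11, adjusted p = 0.138).

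Of 10 transcription factors of ductal cells, 1 of 9 tested was called between diets in WT mice (9.01% of all genes) and 0 of 8 in Klrk1-/- mice by limma (5.46% of all genes). At an adjusted p under 0.05, 1 was higher and 3 were lower in WT mice, and 2 were higher and 0 lower in Klrk1-/- mice, against 34.9% and 29.4% of all genes, with median log2 fold changes of 0.19 and 0.22. Onecut1 (HNF6), a factor of hepatocytes and ducts, fell from 539.5 ± 105.2 to 100.0 ± 68.3 normalized counts in WT mice (log2 fold change -2.73, adjusted p = 0.000962). In Klrk1-/- mice, where it was not called, it was at 155.1, 1285.4, 159.2 and 549.8 on NCD. On SSD these mice had 45.4, 252.2 and 72.9, so the diets overlapped. In the limma interaction model 0 of 9 of these factors had an adjusted p under 0.05, against 0.880% of all genes. The effect of diet on Onecut1 thus did not differ detectably between genotypes. Between genotypes 0 of 9 were called on NCD by limma (2 lower at an adjusted p under 0.05) and 1 of 9 on SSD (also the only 1 under an adjusted p of 0.05), against 1.70% and 1.15% of all genes called and 13.1% and 2.90% at an adjusted p under 0.05, with medians of -0.43 and -0.25. Foxj1, a factor of ciliated cells, was lower in SSD-fed Klrk1-/- mice (log2 fold change -2.33, adjusted p = 0.0404). It rested on 2, 11 and 2 reads in these mice and on 13 to 33 in SSD-fed WT mice. Its call was lost without WT mouse 2, 3 or 4 or Klrk1-/- mouse 1 or 3, with an adjusted p of 0.0755 to 0.170 and a log2 fold change of -2.01 to -2.31, and edgeR gave an adjusted p of 0.0607, a pseudocount of 10 gave 0.0527 and quantile normalization 0.0561.

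Notch signalling, which directs liver progenitors to the ductal fate through RBPJ and HES1, was described by 17 genes. In WT mice 1 of 15 tested was called between diets, against 9.01% of all genes, and 6 had an adjusted p under 0.05, all higher on SSD, against 34.9% of all genes (median 0.54). These shares are near those of all genes. Of the 15 tested in Klrk1-/- mice 1 was called, against 5.46% of all genes, and 2 had an adjusted p under 0.05, against 29.4% (median 0.22). Between genotypes 1 of 14 was called on NCD, against 1.70% of all genes, where 4 were higher and 1 lower at an adjusted p under 0.05, against 13.1% of all genes (median 0.33). On SSD 0 of 15 were called by limma, against 1.15% of all genes, and 0 had an adjusted p under 0.05, against 2.90% (median -0.02). The called gene was Hes1 each time. Hes1 was at 65.1, 76.5, 49.5 and 86.1 normalized counts in NCD-fed WT mice and at 171.2, 247.6, 411.6 and 242.3 in NCD-fed Klrk1-/- mice. On SSD it was at 343.4, 419.9, 400.7, 506.4 and 267.8 in WT mice and at 593.9, 377.4 and 633.4 in Klrk1-/- mice. NCD-fed WT mice lay below all others. Hes1 rose on SSD by 2.46 on the log2 scale in WT mice (adjusted p = 3.86e-06) and by 1.03 in Klrk1-/- mice (adjusted p = 0.0104), and was higher by 1.89 in Klrk1-/- than in WT mice on NCD (adjusted p = 0.000694). Without NCD-fed Klrk1-/- mice 2 and 3 these last values were 1.35 (adjusted p = 0.00151) and 1.57 (adjusted p = 0.00688). The call for the diets in Klrk1-/- mice was lost without NCD-fed mouse 1 (0.84, adjusted p = 0.0209), SSD-fed mouse 1 (0.94, adjusted p = 0.0503) or SSD-fed mouse 3 (0.89, adjusted p = 0.0584). In the limma interaction model 0 of 15 Notch genes had an adjusted p under 0.05, against 0.880% of all genes. The effect of diet on Hes1 thus did not differ detectably between genotypes. On NCD Hes1 was higher in Klrk1-/- mice, where Krt19 and Prom1 were lower, and no link between these genes was tested.

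YAP and TEAD act in another pathway of ductal cell fate, and 16 of its genes were listed. In WT mice 1 of 15 tested was called between diets, against 9.01% of all genes (Axl, a receptor tyrosine kinase gene, log2 fold change 1.003, adjusted p = 0.00759) and 8 rose and 1 fell at an adjusted p under 0.05, against 34.9% of all genes (median 0.43). Axl was under 2-fold without NCD-fed mouse 1 or 2 or SSD-fed mouse 1 or 4 (0.78 to 0.97). For the diets in Klrk1-/- mice 0 of 14 were called by limma and 4 had an adjusted p under 0.05, all higher, against 29.4% of all genes (median 0.14). Between genotypes 0 of 14 were called on NCD (median 0.14) and 0 of 15 on SSD (median -0.18), against 1.70% and 1.15% of all genes, with 2 and 0 under an adjusted p of 0.05, against 13.1% and 2.90%.

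Of the fetal and progenitor genes, Tnfrsf12a, which encodes the TWEAK receptor Fn14, rose in both genotypes, with log2 fold changes of 1.67 in WT mice (adjusted p = 5.89e-05) and 1.01 in Klrk1-/- mice (adjusted p = 7.70e-05). In the latter it was under 2-fold without NCD-fed mouse 3 or 4 or SSD-fed mouse 1 (0.95 to 0.99, adjusted p at most 0.000986), and it was 1.09 without NCD-fed mice 2 and 3 (adjusted p = 0.000204). The adhesion receptor gene Cd44 rose in WT mice (1.11, adjusted p = 0.00937), Afp fell in Klrk1-/- mice (-1.28, adjusted p = 0.00995), and Gpc3 was lower in Klrk1-/- than in WT mice on NCD (-1.26, adjusted p = 0.0244). Cd44 was under 2-fold without NCD-fed WT mouse 2 (0.98, adjusted p = 0.0317) or SSD-fed WT mouse 1 (0.86, adjusted p = 0.00373). Without NCD-fed Klrk1-/- mice 2 and 3 Afp was at -0.98 (adjusted p = 0.103) and Gpc3 at -1.17 (adjusted p = 0.182). The call of Gpc3 was also lost without WT mouse 1, 2 or 3 or Klrk1-/- mouse 3 or 4 (adjusted p = 0.0504 to 0.0753). In all, 2 of 8 such genes were called between diets in WT mice (median 0.23) and 2 of 9 in Klrk1-/- mice (median 0.28), and 1 of 9 and 0 of 9 between genotypes on NCD and SSD (medians -0.20 and -0.34). The shares of all genes called were 9.01%, 5.46%, 1.70% and 1.15% in this order. At an adjusted p under 0.05 the list had 3 higher and 1 lower for the diets in WT mice (34.9% of all genes), 3 higher and 2 lower in Klrk1-/- mice (29.4%), and 2 lower and 0 between genotypes on NCD (13.1%) and SSD (2.90%). With a pseudocount of 10 the changes of Axl in WT mice, of Ddr1, Tspan8, Tnfrsf12a and Afp in Klrk1-/- mice, and of Bicc1 and Gpc3 on NCD were under 2-fold, with adjusted p-values still under 0.05. With all groups in 1 model the adjusted p was 0.0570 for Afp and 0.0645 for Bicc1.

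**Figure D5:**
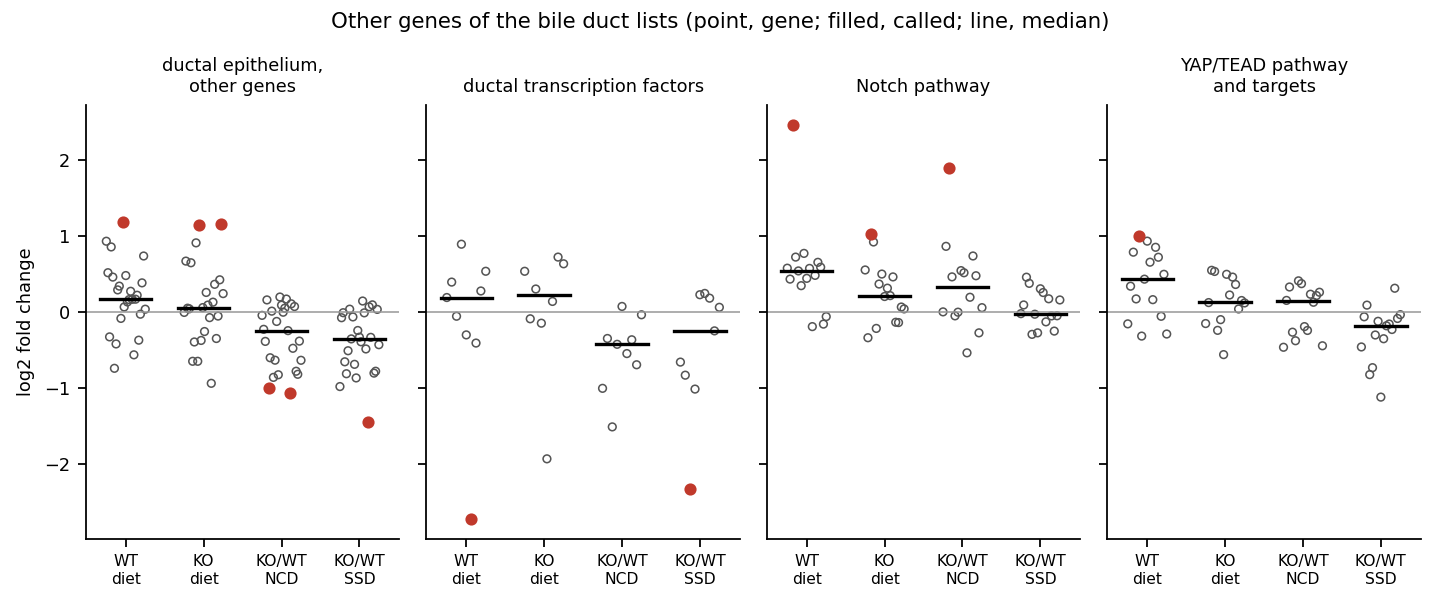
Log2 fold changes (vertical axis) of the tested genes of 4 lists in the 4 comparisons (horizontal axis), 1 point per gene, filled where called, with the median of the list as a line. Hes1 stands at 2.46, 1.03 and 1.89 in the Notch panel, and Onecut1 stands at -2.73 among the transcription factors.

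Markers of other cells were compared because mesothelium, which covers the liver, also carries Krt7 and Krt19. The counts of called markers that follow are to be read against the 9.01%, 5.46%, 1.70% and 1.15% of all genes called for the diets in WT mice, the diets in Klrk1-/- mice and the genotypes on NCD and SSD, and 0 of a few markers is near these shares. The 7 mesothelial markers summed to 65.1 to 229.6 normalized counts in NCD-fed WT mice and 50.4 to 133.1 in NCD-fed Klrk1-/- mice, and to 73.5 to 146.6 and 41.1 to 70.5 on SSD. Of the 3 or 4 tested, 0 were called on NCD or between diets by limma, with 0 under an adjusted p of 0.05 and a median of -0.57 between genotypes on NCD. On SSD 1 of 4 was called between genotypes (Upk3b, log2 fold change -1.88, adjusted p = 0.0213), against 1.15% of all genes. No mesothelial marker was at 0 in all mice, and their part in the lower Krt19 of NCD-fed Klrk1-/- mice was not tested. The 12 hepatocyte markers summed to 2350600 to 3033500 normalized counts on NCD and to 1671000 to 2293600 on SSD, where Tat and Ass1 fell in both genotypes and Cps1 fell in WT mice. Of the 12 pancreatic acinar markers, 6 including Prss2 were at 0 in every mouse, and Cela1 and Cela2a, which were detected, were called lower on SSD, the latter in Klrk1-/- mice. The neutrophil marker Ly6g was at 0 in every mouse, and 0 of 3 neutrophil and 0 of 5 erythroid markers were called in any comparison by limma. Cd68 and Ccr2 of the macrophage list and Col1a1 of the stellate list rose on SSD in WT mice, and Cd68 differed between genotypes on SSD, where it was lower in Klrk1-/- mice. Cd4 of the T and NK cell list fell on SSD in both genotypes. The log2 fold change was above 0 for 2 of 3 tested markers of that list in WT mice (median 0.65). In Klrk1-/- mice it was above 0 for 3 of 4 (median 0.21), with 0 called higher in either genotype. Among the endothelial markers 0 of 6 were called by limma in any comparison. At an adjusted p under 0.05, 5 were higher on SSD in WT mice (median 0.56) and 2 in Klrk1-/- mice, against 34.9% and 29.4% of all genes. On NCD 1 was higher in Klrk1-/- than in WT mice at that limit, against 13.1% of all genes.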

How the data were processed

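Whole-liver RNA of 16 mice was sequenced as 100-base single reads. The study's methods name a total RNA kit and the labels an mRNA kit. The authors used STAR on GRCm39 for alignment, and FeatureCounts with GENCODE genes for counting. The signal they deposited is a normalized count, the reads of a gene divided by 1 factor per sample, which kept 100% of values at whole multiples of 1 read (tolerance 0.1). How the factors were computed is not given in the sources used here.

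Groups come from the labels. limma 3.58.1 (R 4.3.3, trend) was fitted to log2(normalized count + 1) over the groups compared, or all 16 mice for the interaction. Genes with a mean of at least 10 were tested, with Benjamini-Hochberg adjustment. Exact permutation used scipy 1.17.1. edgeR 4.0.16 and DESeq2 1.42.0 ran on recovered reads. Scripts were tested on simulated data. Fold changes on this scale understate those of low genes. All 8 members are named. Other genes are called list genes (up to 4 per list and comparison) and the 3 genes most alike to each member. Klrk1 and Rilpl1 are checks. Members, lists and motifs were chosen with earlier results of these data known. Overlaps come from a later GENCODE release.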

Additional observations from a re-analysis of the deposited data

Results flagged for a closer look

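Of 24 groups of 4 or 5 mice tested for a single mouse far from the others, 1 held such a mouse, and chance gives about 1 in 20. Krt23 in SSD-fed WT mouse 1 was at 342.8 normalized counts, with the next highest mouse of the group at 80.0 and the lowest at 49.7. The gap to the next mouse was 0.897 of the range, above the critical value of 0.71 for 5 mice. This mouse also had the highest stellate cell and macrophage marker sums of its group, and the part of these cells was not tested.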

How the results depend on the processing

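Krt23 remained called between diets under every alternative in which it was tested. With a minimum mean of 50, Krt23 and Epcam were not tested for the diets in Klrk1-/- mice, nor Prom1 between genotypes on NCD. Scaling libraries to equal totals moved the median over all genes to 0.34 (log2) for the diets in WT mice, 0.25 in Klrk1-/- mice and -0.12 for the genotypes on SSD. Of the members called between diets in Klrk1-/- mice (2 as reported), 1 was left with a pseudocount of 10, quantile normalization, all groups in 1 model or without NCD-fed Klrk1-/- mice 2 and 3 (an alternative chosen after seeing the data), 0 with a minimum mean of 50 (both untested), and 1 to 2 when single mice were left out. Of the 2 called between genotypes on NCD, 0 were left with a pseudocount of 10 or without Klrk1-/- mice 2 and 3, 1 with a minimum mean of 50 (Prom1 untested), and 4 were called with quantile normalization. Leaving out single mice gave 1 to 4, with 4 without WT mouse 1 and 1 without WT mouse 5, Klrk1-/- mouse 2 or Klrk1-/- mouse 3. Replicate numbers did not pair the mice, since correlations of same-numbered mice ranged from -0.13 to 0.25. Each mouse correlated best with its own number in 6 of 6 cases between genotypes on SSD, but in 0 of 8, 4 of 6 and 3 of 6 cases for the diets in WT, the diets in Klrk1-/- and the genotypes on NCD. With the replicate number as a block, 1 member (Cd24a, lower) was called between genotypes on SSD and 0 on NCD, so the calls of Krt19 and Prom1 ended. Of the list genes, this block took Bicc1 on NCD (-0.85), Axl for the diets in WT mice (0.94) and Tnfrsf12a in Klrk1-/- mice (0.96) under 2-fold. No called gene of the ductal, transcription factor, Notch, YAP or progenitor lists changed sign. The following log2 fold changes, not called in any of these settings, changed sign, and the cause was not tested. With equal totals, Krt7 (0.033) and Prom1 (0.25) did so for the diets in WT mice and Sox9 (0.24) in Klrk1-/- mice. With quantile normalization, Epcam (-0.15) did so in WT and Krt7 (-0.020) in Klrk1-/- mice. With edgeR, Sox9 (0.0097) and with DESeq2, Sox9 (0.0060) did so in Klrk1-/- mice and, with DESeq2, Prom1 (0.0022) in WT mice. With the replicate block, Krt7 (-0.11) and Sox9 (0.076) did so for the diets in Klrk1-/- mice and Sox9 (-0.031) between genotypes on NCD. Without Klrk1-/- mice 2 and 3, Krt23 did so on NCD (0.11). Leaving out single mice gave, for the diets in WT mice, -0.26 to 0.44 for Epcam and -0.20 to 0.18 for Prom1, and in Klrk1-/- mice -0.21 to 0.17 for Sox9 and -0.11 to 0.21 for Krt7. It gave, between genotypes on SSD, -0.71 to 0.025 for Krt23 and -0.37 to 0.015 for Sox9, and on NCD -0.18 to 0.049 for Krt23 and -0.033 to 0.15 for Sox9. The interaction of Krt23 ranged from -0.63 to 0.10. Prom1, Krt7 and Cftr rest on few reads, and changes under 2-fold in them are limited by depth. On NCD Krt23 (12 to 24 reads) and, in Klrk1-/- mice, Epcam (12 to 21 reads) also rest on few. Of the list genes, so do Foxj1 in SSD-fed and Gpc3 and Tspan8 in NCD-fed Klrk1-/- mice.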
